A study of Solanum pimpinellifolium with 6 samples.

Results

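The sequences described here are predicted 24 nt small RNAs of the wild tomato LA2093 (Solanum pimpinellifolium). They are the entries of the study's miRNA list that carry a PC number and whose mature sequence is 24 nt long. A PC number marks sequences that the authors did not class as known plant miRNAs. The rule that defines the set also left out PC-49-3p by name, which is counted here with the predicted sequences of other lengths. The rule gave 70 entries of 759, which held 65 distinct sequences of the 629 on the list. The list also held 25 distinct predicted sequences of other lengths and 137 conserved sequences of 24 nt, which serve as comparison. Leaves came from plants kept for 8 h at 26/18 °C (normal temperature, NT), at 33/33 °C (moderately elevated temperature, MET) or at 40/40 °C (acutely elevated temperature, AET), the values being day and night temperatures. All plants were of the same wild accession. Each temperature had 1 sRNA library and 1 degradome library, so no difference between temperatures has a replicate check, and every test below compares libraries and not the conditions.

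Plant miRNAs are cut by a Dicer-like enzyme from a single-stranded transcript that folds back on itself, and most then guide an Argonaute protein to mRNAs that they pair with. Small RNAs of 24 nt are, in general, the product of another Dicer-like enzyme that cuts double-stranded RNA, often made from repeats and transposons. They are loaded into Argonaute proteins of the AGO4 group, which direct DNA methylation and favour a 5′ adenine. Some 24 nt sequences do come from hairpins and are described as long miRNAs, so the length alone does not place a sequence in either class.

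Of the 65 distinct sequences, 29 fell into 9 families, a family being sequences joined by at least 12 identical consecutive bases read on either strand. The largest family held 12 sequences from 11 hairpins on 7 chromosomes (chromosome 0, which collects unplaced sequence, counted as 1). They are shown here because they carry the main sequence pattern of the set, with the 7 bases common to all of them in capitals, either as GATATAC or as its reverse complement GTATATC.
PC-3-5p: agcattaggttGATATACgtcact
PC-12-5p: tgatggcgtcagattGATATACgt
PC-15-5p: aggttGATATACgttactgtaagt
PC-42-5p: attaggttGATATACgttactgta
PC-57-5p: gatagcgtcagattGATATACgtt
PC-3-3p: gagtaacGTATATCaatctgacgc
PC-8-3p: agtaacGTATATCaatctgacgcc
PC-12-3p: taacGTATATCaacctaatgctgt
PC-15-3p: agtaacGTATATCaatctgatgcc
PC-22-3p: GTATATCaatctaacgctgttagt
PC-31-3p: agtgacGTATATCaacctaatgcc
PC-37-3p: agtaacGTATATCgatctgacgcc

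The 5 sequences that read GATATAC were all named as 5p arms, and the 7 that read GTATATC were all named as 3p arms. The 7 bases were in none of the other 564 listed sequences on either strand, including the 137 conserved 24 nt sequences. A longer word of the family, GATATACGT or its reverse complement ACGTATATC, was in 11 of the 12 (all but PC-22-3p), which is 16.9% of the predicted 24 nt sequences and 1.75% of all listed sequences. Members of the family were close relatives of each other in several cases. PC-3-3p and PC-8-3p shared 23 consecutive bases on the same strand. PC-3-5p and PC-31-3p shared 23 bases on opposite strands. These sequences share their source to an unknown degree, and they are not independent observations of a temperature.

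The other 8 families were smaller, and none of their shared words was in any other listed sequence, except the 13 bases shared by PC-45-5p and PC-66-5p, which were also in the predicted 23 nt sequence PC-41-3p on the opposite strand. The family of 3 is shown with its shared 17 bases in capitals.
PC-47-5p: aattttACTGAAGAACATAGAACc
PC-58-5p: atttcACTGAAGAACATAGAACcc
PC-92-5p: atttcACTGAAGAACATAGAACtc

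The pair PC-80-3p and PC-86-5p is shown because it shared 22 bases on opposite strands.
PC-80-3p: acGAGGACATGAGTGAACCAAACT
PC-86-5p: aaAGTTTGGTTCACTCATGTCCTC

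Bases 2 to 8 of a miRNA are called the seed. Plant miRNAs, unlike those of animals, pair with their targets over most of their length, so the seed serves here only to group sequences. The 65 sequences had 60 different seeds, and 4 seeds were shared. PC-8-3p, PC-15-3p and PC-37-3p of the largest family had 1 seed in common. The other shared seeds joined PC-58-5p with PC-92-5p, PC-23-3p with PC-48-3p, and PC-29-3p with PC-76-3p. The last 4 of these sequences belonged to no family by the 12-base rule and are shown with the seed in capitals.
PC-23-3p: gTGCCACGtaggacgaaaaggagt
PC-48-3p: gTGCCACGtagactgaaaaggagt
PC-29-3p: aTGTATTGacttggtgtaaacact
PC-76-3p: aTGTATTGgcttggtataaacact

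PC-82-5p ended in the same 8 bases, TAAACACT, as PC-29-3p and PC-76-3p, and no other listed sequence held them on either strand. The words named here were picked after the sequences were seen. By the 12-base rule, 6 of the 65 sequences were also related to listed sequences outside the set. PC-65-3p was the closest of these. It shared 20 bases with the conserved spi-miR398b-3p_stu, a member of the miR398 family, which is known for targeting copper/zinc superoxide dismutase mRNAs in plants. Both are shown with the shared bases in capitals.
PC-65-3p: aacaTGTGTTCTCAGGTTACCCCT
spi-miR398b-3p_stu: TGTGTTCTCAGGTTACCCCTg

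The hairpins of both were placed on the plus strand of chromosome 12. That of PC-65-3p ran from 65125228 to 65125429 and that of spi-miR398b-3p_stu from 65125263 to 65125390. PC-20-5p, a predicted 22 nt sequence, came from the same region. PC-65-3p had 17, 29 and 26 raw reads in NT, MET and AET. spi-miR398b-3p_stu had 161, 189 and 119 raw reads in NT, MET and AET. The conserved sequence was lower in AET than in NT, with 107 normalized reads in AET and 214 in NT (0.499-fold, exact p = 5.78e-06, Fisher's exact test adjusted by Benjamini-Hochberg over all listed sequences with reads). PC-65-3p had 23.3 normalized reads in AET and 22.6 in NT (log2 ratio 0.05, 95% counting interval −0.89 to 1.02).

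The first base of the predicted 24 nt sequences was adenine in 43 of 65 (66.2%), thymine in 12, guanine in 7 and cytosine in 3. The predicted sequences of other lengths began with adenine in 7 of 25 (28.0%) and with thymine in 12. The conserved 24 nt sequences began with adenine in 104 of 137 (75.9%), and the conserved sequences of other lengths in 84 of 402 (20.9%). Weighted by reads, adenine-first sequences made up 80.9%, 80.7% and 77.9% of the raw reads of the set in NT, MET and AET. The last base was thymine in 35 and cytosine in 23 of the 65, and guanine in none of them, while 16 of the 137 conserved 24 nt sequences ended in guanine. The median GC content was 37.5% in both 24 nt classes.

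The 70 entries came from 65 hairpins, spread over all 12 chromosomes and chromosome 0. Chromosome 11 had most, with 8, and the minus strand held 36 and the plus strand 29. Their genome build was not given in the sources used here. No annotation was used, so the genes or repeats at these places were not analysed here. A minimal folding free energy index (MFEI), which relates folding energy to length and GC content, of at least 0.80 was a condition for a predicted sequence to be listed. The 65 hairpins ranged from 0.8 to 2.5 with a median of 1.1, and 12 were under 1. PC-74-5p had the highest value, 2.5. The 137 hairpins of conserved 24 nt sequences, which had no such condition, had a median of 0.6, and 115 of them were under 1. Folded again, every mature sequence lay in 1 arm of its hairpin as named, with 20 to 24 of its 24 bases paired (median 22). All 24 were paired in 14 of 70 entries. The hairpin sequence of 44 entries held masked bases, written as N, which cannot pair when folded. The mature sequence matched its hairpin exactly in 46 entries and with 1 mismatch in 24.

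Hairpins with both arms on the list are of use because a Dicer-like enzyme leaves a duplex whose strands overhang by 2 bases at each 3′ end. The set held 5 of them, PC-1, PC-3, PC-5, PC-12 and PC-15. Only the PC-1 arms, placed on the folded hairpin, overhung by 2 bases at both ends. The PC-5 arms overhung by 1 and 2 bases and the PC-15 arms by 6 at both ends, and the 3′ ends of the PC-3 and PC-12 arms were recessed. The PC-12 and PC-15 hairpins held 11 and 6 masked bases, and the effect of these on the overhangs was not tested. The PC-1 hairpin, at 61617162 to 61617311 on the minus strand of chromosome 4, is shown with both arms in capitals. Its 3p arm differs from the listed PC-1-3p by 1 mismatch.
PC-1 hairpin: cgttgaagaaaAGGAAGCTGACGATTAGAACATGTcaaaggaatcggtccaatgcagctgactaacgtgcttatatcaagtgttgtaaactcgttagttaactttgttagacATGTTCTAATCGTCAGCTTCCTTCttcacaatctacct

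Some hairpins overlapped another hairpin of the set on the opposite strand. The PC-2 hairpin lay at 61617043 to 61617217 on the plus strand of chromosome 4, overlapping the PC-1 hairpin by 56 bases, and both gave the same 5p sequence. The PC-13 and PC-14 hairpins of chromosome 9 overlapped by 123 bases and also gave 1 sequence. On chromosome 2, PC-3 and PC-31 overlapped by 34 bases, and PC-80 and PC-86 by 94 bases. In all, 5 of the 65 sequences were listed at 2 hairpins, and their reads cannot be told apart by place.

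The predicted 24 nt sequences were rare. Their summed raw reads were 722.5 in NT, 1182 in MET and 1371.5 in AET, against 301702, 424963 and 394910 raw reads of all listed sequences in NT, MET and AET. The set therefore made up 0.240% of the listed reads in NT (95% exact interval 0.223 to 0.258), 0.278% in MET (0.263 to 0.294) and 0.347% in AET (0.329 to 0.366). These intervals, like all others here, cover counting error only, and PCR reads are not independent molecules. Reads that are not whole arose in 20 of the 65 sequences.

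In normalized reads, the unit in which the authors scaled the libraries to each other, the set summed to 985 in MET and 960 in NT (log2 ratio 0.04, 95% counting interval −0.10 to 0.17). It summed to 1231 in AET and 960 in NT (log2 ratio 0.36, interval 0.23 to 0.49). The sum in AET was also above that in MET (log2 ratio 0.32, interval 0.21 to 0.44). The 25 predicted sequences of other lengths summed to 895, 1919 and 1178 in NT, MET and AET. Their log2 ratio was 0.40 for AET over NT (interval 0.26 to 0.53), close to that of the set. It was 1.10 for MET over NT and −0.70 for AET over MET. The conserved 24 nt sequences summed to 2035 in AET and 2026 in NT (log2 ratio 0.01, interval −0.09 to 0.10), and to 2035 in AET and 1530 in MET (log2 ratio 0.41). Much of these sums came from spi-miR4995_gma alone, with 859, 447 and 612 normalized reads in NT, MET and AET. Its own log2 ratio of AET over NT was −0.49, so the flat sum does not describe the other conserved 24 nt sequences. Scaled instead to the valid reads of each library, which shifts every MET against NT ratio by 0.42, the set's ratio was 0.46 for MET over NT and 0.037 for AET over MET. Whether the MET sum lay near NT or near AET thus depended on the scaling.

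A condition on level shaped these sums. A predicted sequence was listed only if it reached 10 normalized reads in at least 1 library, which took 8 raw reads in NT, 13 in MET and 12 in AET. Of the 65 sequences, 18 reached 10 in all 3 libraries. Another 21 did so only in AET, 7 only in MET and 4 only in NT. A further 8 reached it in NT and AET, 5 in NT and MET, and 2 in MET and AET. Those that entered through AET alone had to be higher there, so counts over the set describe the list and do not test it. The same holds for each sequence that reached 10 in 1 library alone, against the other libraries. It also holds for each sequence that reached 10 in 2 libraries, against the library where it did not. Such ratios are given below as a description, with no p-value. The sequences just inside the minimum were PC-57-5p, with 10.6 normalized reads in its highest library, and PC-10-5p and PC-38-5p, with 10.8. The conserved 24 nt sequences had no such condition, and those just below 10 were spi-miR8007b-p3_stu, at 10.0 after rounding, and spi-miR8019-3p_stu and spi-miR8031_stu, at 9.97.

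**Figure D1:**
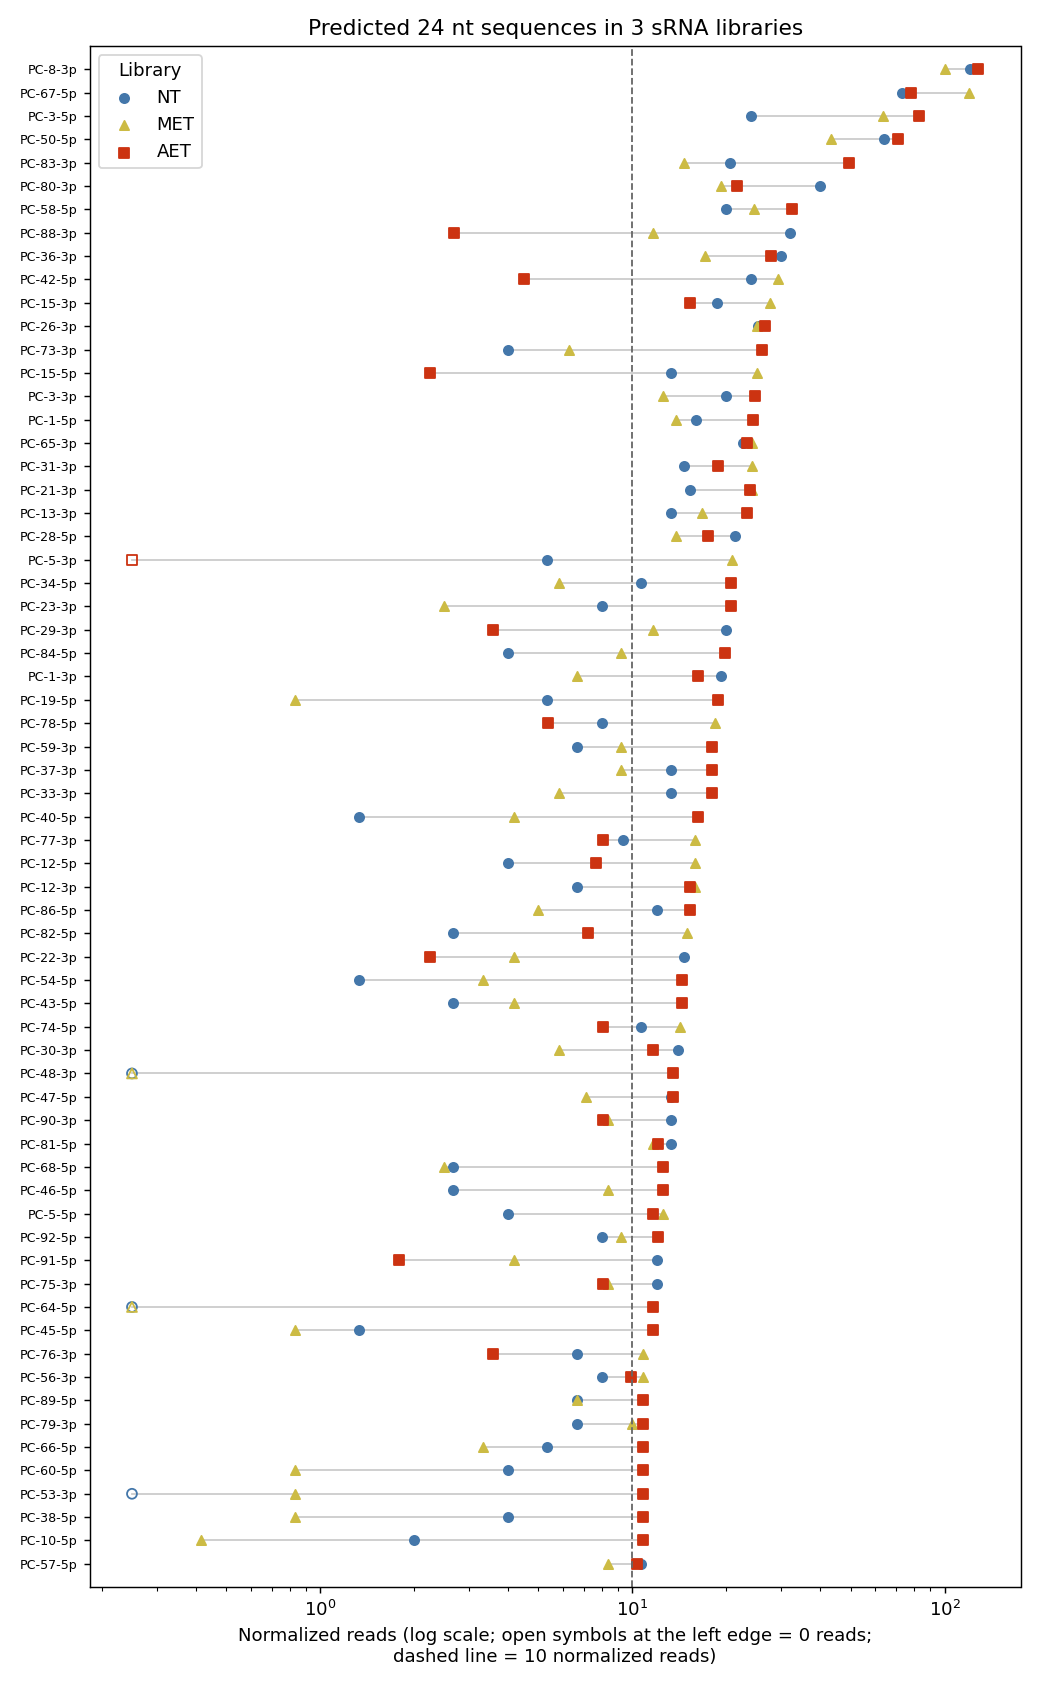
Normalized reads (log scale) of each of the 65 predicted 24 nt sequences in the NT, MET and AET libraries, 1 point per library, ordered by the highest value, with the dashed line at the minimum of 10. Most points lie near the line, and 4 sequences (PC-8-3p, PC-67-5p, PC-3-5p and PC-50-5p) exceed 50 normalized reads.

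The most abundant sequences took a large share of the reads. The 5 highest made up 34.3%, 36.1% and 33.2% of the raw reads of the set in NT, MET and AET. PC-8-3p, of the largest family, had 90.5, 120 and 142.5 raw reads in NT, MET and AET. PC-67-5p had 55, 144 and 87 raw reads in NT, MET and AET. PC-50-5p had 48, 52 and 79. None of these 3 was called in any comparison. PC-67-5p came nearest, with 120 normalized reads in MET and 73.1 in NT (log2 ratio 0.71, exact p = 0.00073, Fisher's exact test, adjusted), which stayed under the required ratio. Its hairpin paired all 24 bases of the mature sequence. Of the 65 sequences, 61 had reads in all 3 libraries, and 41 stayed under 20 normalized reads in every library.

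Sequences were called by the study's rule, a chi-square test and a two-sided Fisher's exact test both passing at p of 0.05, together with a log2 ratio of 1 or more in either direction. Of the 63 sequences with reads to compare in MET and NT, 6 were called higher and 4 lower in MET. Among all listed sequences that reached 10 normalized reads somewhere, 10.5% were called higher and 8.89% lower. In AET against NT, 18 of 65 were called higher and 6 lower, beside 17.0% and 14.2% of all such listed sequences. In AET against MET, 20 were called higher and 5 lower, beside 16.7% and 16.1%. The 25 predicted sequences of other lengths had the same listing condition. Of them, 5 were called higher and 1 lower in MET against NT, 9 and 1 in AET against NT, and 8 and 1 in AET against MET. Of the higher calls of the 24 nt set, 15 of the 18 against NT and 16 of the 20 against MET were sequences that reached the minimum in AET alone. The median log2 ratio of the 24 nt set was −0.05 for MET over NT, 0.43 for AET over NT and 0.40 for AET over MET. The conserved 24 nt sequences that reached 10 had medians of −0.23, 0.43 and 0.41 in the same comparisons, and all listed sequences −0.01, 0.11 and −0.03. The medians of the predicted sequences of other lengths were 0.22, 0.92 and 0.67, so the rise in AET was not particular to the 24 nt set. The comparisons against NT share the NT library. In all, 36 of the 65 were called in some comparison and 29 in none.

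**Figure D2:**
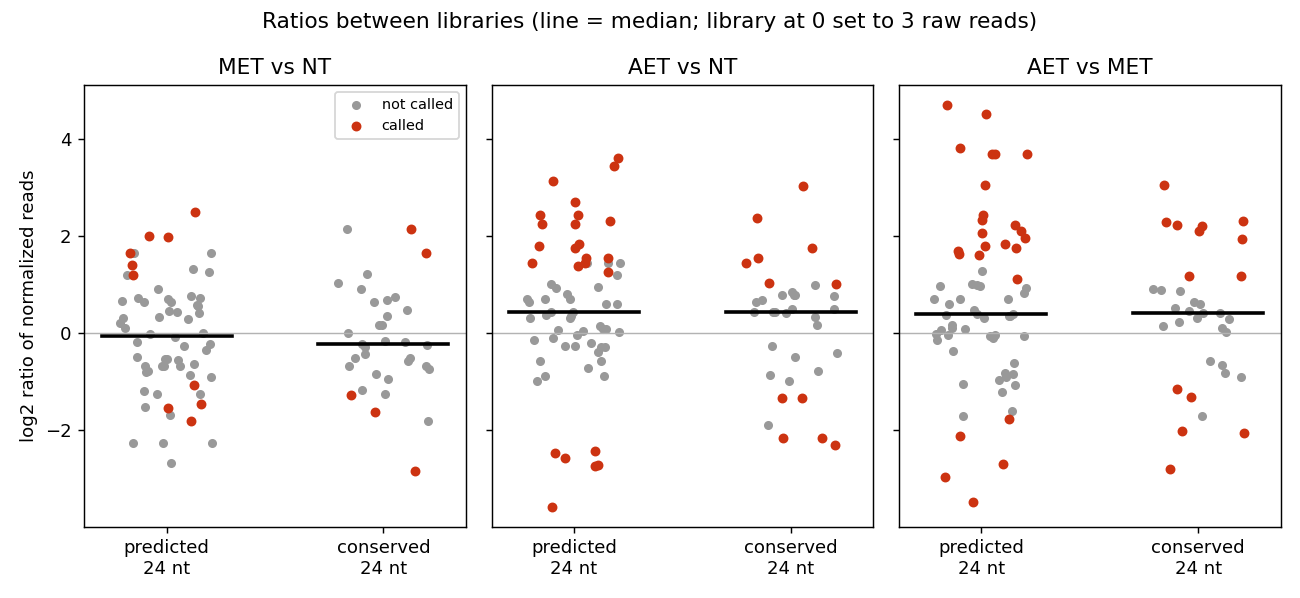
log2 ratio of normalized reads in each comparison for the predicted 24 nt sequences and the conserved 24 nt sequences that reached 10 normalized reads, 1 point per sequence, with the median as a line and called sequences in red. The medians of the predicted sequences were −0.05, 0.43 and 0.40, and most called points in the AET comparisons lie above 0.

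Fewer calls held after adjustment over all listed sequences. With the Benjamini-Hochberg adjusted p of Fisher's exact test at 0.05 or less, 4 of the 6 higher and 1 of the 4 lower calls remained in MET against NT. In AET against NT, 16 of 18 higher and 5 of 6 lower calls remained, and in AET against MET 15 of 20 and 4 of 5. Since 15 of the 18 and 16 of the 20 higher calls were of sequences listed through AET alone, their passing adjustment is no test. The same holds for calls of sequences listed through MET or NT alone, and for calls against any library where the sequence stayed under the minimum. All lower calls in AET, against NT and against MET, were of sequences that stayed under the minimum in AET. The counting interval of the ratio held 0 for 2 of the higher calls in MET against NT, 3 in AET against NT and 1 in AET against MET.

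The sequences called higher in AET had few reads. PC-40-5p had 1, 5 and 18 raw reads in NT, MET and AET, a log2 ratio of 3.60 for AET over NT. PC-54-5p had 1, 4 and 16 raw reads, with a ratio of 3.43 for AET over NT. PC-45-5p had 1, 1 and 13, with ratios of 3.13 over NT and 3.81 over MET. Each of these ratios over NT rests on 1 read in NT. PC-73-3p had 3, 7.5 and 29 raw reads in NT, MET and AET, with a ratio of 2.71 for AET over NT. These 4 sequences were listed through AET alone. PC-83-3p, which reached 10 in all 3 libraries, had 15.5, 17.5 and 55 raw reads in NT, MET and AET. It was higher in AET than in both other libraries, by 1.26 over NT and 1.76 over MET (adjusted exact p = 0.0011 and 0.00012).

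Some of these had no read in a cooler library, where a floor of 3 raw reads per library stands in for 0. PC-48-3p had 0, 0 and 15 raw reads in NT, MET and AET, and was at least 3.38-fold higher in AET than in NT and at least 5.39-fold higher than in MET. PC-64-5p had 0, 0 and 13, and was at least 2.93-fold higher in AET than in NT. PC-53-3p had 0, 1 and 12, and was at least 2.70-fold higher in AET than in NT. Like those above, PC-48-3p, PC-64-5p and PC-53-3p were listed through AET alone and had to be higher there. A count of 0 here does not show absence, since 3 raw reads would be 3.99 normalized reads in NT and 2.50 in MET.

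Some sequences called higher in AET were related to each other, and others had relatives that were not called. Except for PC-33-3p, the called sequences of this paragraph were all listed through AET alone. Agreement between such relatives in being higher in AET is therefore favoured by the listing condition. PC-21-3p (11.5, 29 and 26.5 raw reads in NT, MET and AET) shared 16 bases with PC-73-3p and was called in no comparison. PC-26-3p (19, 30 and 29.5 raw reads) shared 16 bases with PC-33-3p, which was called higher in AET than in MET, and was itself called in none. PC-23-3p and PC-48-3p, with the same seed, were both called higher in AET than in each other library. PC-23-3p had 6, 3 and 23 raw reads in NT, MET and AET. PC-40-5p and PC-68-5p, which end in CTTTTCGGC, were called likewise, PC-68-5p with 2, 3 and 14 raw reads. PC-10-5p holds the same 9 bases inside, and had 1.5, 0.5 and 12 raw reads. Its ratio for AET over MET was 4.69, which rests on 0.5 of a read in MET. PC-45-5p and PC-66-5p form a family. PC-66-5p had 4, 4 and 12 raw reads and was called only against MET (log2 ratio 1.69), a call that did not hold after adjustment and whose counting interval held 0. PC-19-5p, of no family, had 4, 1 and 21 raw reads, with ratios of 1.83 for AET over NT and 4.50 for AET over MET. PC-43-5p had 2, 5 and 16 raw reads, with a ratio of 2.43 for AET over NT. PC-38-5p and PC-60-5p each had 3, 1 and 12, with a ratio of 3.69 for AET over MET, and their AET over NT ratio of 1.43 was not called. PC-84-5p and PC-46-5p, which both had a degradome site, had ratios of 2.31 and 2.24 for AET over NT.

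Fewer sequences were lower in AET. PC-88-3p had 24, 14 and 3 raw reads in NT, MET and AET and was called lower in all 3 comparisons. Its log2 ratio was −3.57 for AET over NT (interval −5.94 to −1.85) and −1.45 for MET over NT. Its call in AET against MET did not hold after adjustment. PC-91-5p had 9, 5 and 2 raw reads, with a ratio of −2.74 for AET over NT, a call that did not hold after adjustment. PC-29-3p had 15, 14 and 4, with a ratio of −2.47 for AET over NT. PC-5-3p had 4, 25 and 0, and was at least 7.73-fold lower in AET than in MET. Both PC-5-3p and PC-78-5p were listed through MET alone, and PC-91-5p through NT alone. PC-88-3p and PC-29-3p were listed through NT and MET and stayed under the minimum in AET, so their lower values there are a description. PC-78-5p had 6, 22 and 6 raw reads, and was called higher in MET than in NT and lower in AET than in MET. The call against NT did not hold after adjustment, with raw reads in the test or with predicted totals, and its counting interval held 0 (−0.15 to 2.79).

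In MET against NT the largest called ratio was that of PC-82-5p, with 2, 18 and 8 raw reads in NT, MET and AET (log2 ratio 2.50 for MET over NT). PC-82-5p was listed through MET alone, as was PC-12-5p. PC-12-5p had 3, 19 and 8.5 raw reads, and a ratio of 1.99 for MET over NT. PC-5-5p had 3, 15 and 13, and a ratio of 1.65 for MET over NT whose counting interval held 0 and whose call did not hold after adjustment. PC-80-3p had 30, 23 and 24, and a ratio of −1.06 for MET over NT. This call did not hold after adjustment (exact p = 0.105), nor with valid reads as scale, where the ratio was −0.63. PC-1-3p had 14.5, 8 and 18, with a ratio of −1.53 for MET over NT whose call did not hold after adjustment. This sequence stayed under the minimum in MET.

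The remaining sequences from overlapping opposite hairpins gave 1 call. PC-13-3p had 10, 20 and 26 raw reads in NT, MET and AET and was called in no comparison. PC-31-3p had 11, 29 and 21, also with no call. PC-86-5p had 9, 6 and 17, and was called higher in AET than in MET (log2 ratio 1.61), a call that did not hold after adjustment. This sequence stayed under the minimum in MET.

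The largest family did not move as a unit. Its 12 sequences summed to 335 normalized reads in MET and 284 in NT (log2 ratio 0.24, interval −0.01 to 0.48), and to 330 in AET and 284 in NT (log2 ratio 0.22, interval −0.04 to 0.46). Within it, PC-3-5p had 18, 76 and 92 raw reads in NT, MET and AET. It was higher in MET than in NT (log2 ratio 1.40, adjusted exact p = 5.2e-05) and in AET than in NT (1.79, adjusted exact p = 2.7e-09). PC-15-5p had 10, 30 and 2.5 raw reads, and PC-42-5p had 18, 35 and 5. Both were lower in AET than in MET (log2 ratio −3.48 and −2.70) and than in NT (−2.57 and −2.41). Both stayed under the minimum in AET, so these ratios are a description. PC-12-5p, listed through MET alone, had 3, 19 and 8.5 raw reads and was called higher in MET than in NT (log2 ratio 1.99). PC-22-3p had 11, 5 and 2.5 raw reads, with ratios of −1.81 for MET over NT and −2.70 for AET over NT. It was listed through NT alone, and its MET call did not hold after adjustment or with the 5 most abundant sequences left out of the totals. PC-3-5p and PC-42-5p thus differed in direction although they shared 17 consecutive bases. PC-8-3p and its close relative PC-3-3p (15, 15 and 27.5 raw reads) were called in no comparison. Neither were PC-31-3p, PC-12-3p (5, 19 and 17 raw reads), PC-15-3p (14, 33 and 17), PC-37-3p (10, 11 and 20) and PC-57-5p (8, 10 and 11.5).

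**Figure D3:**
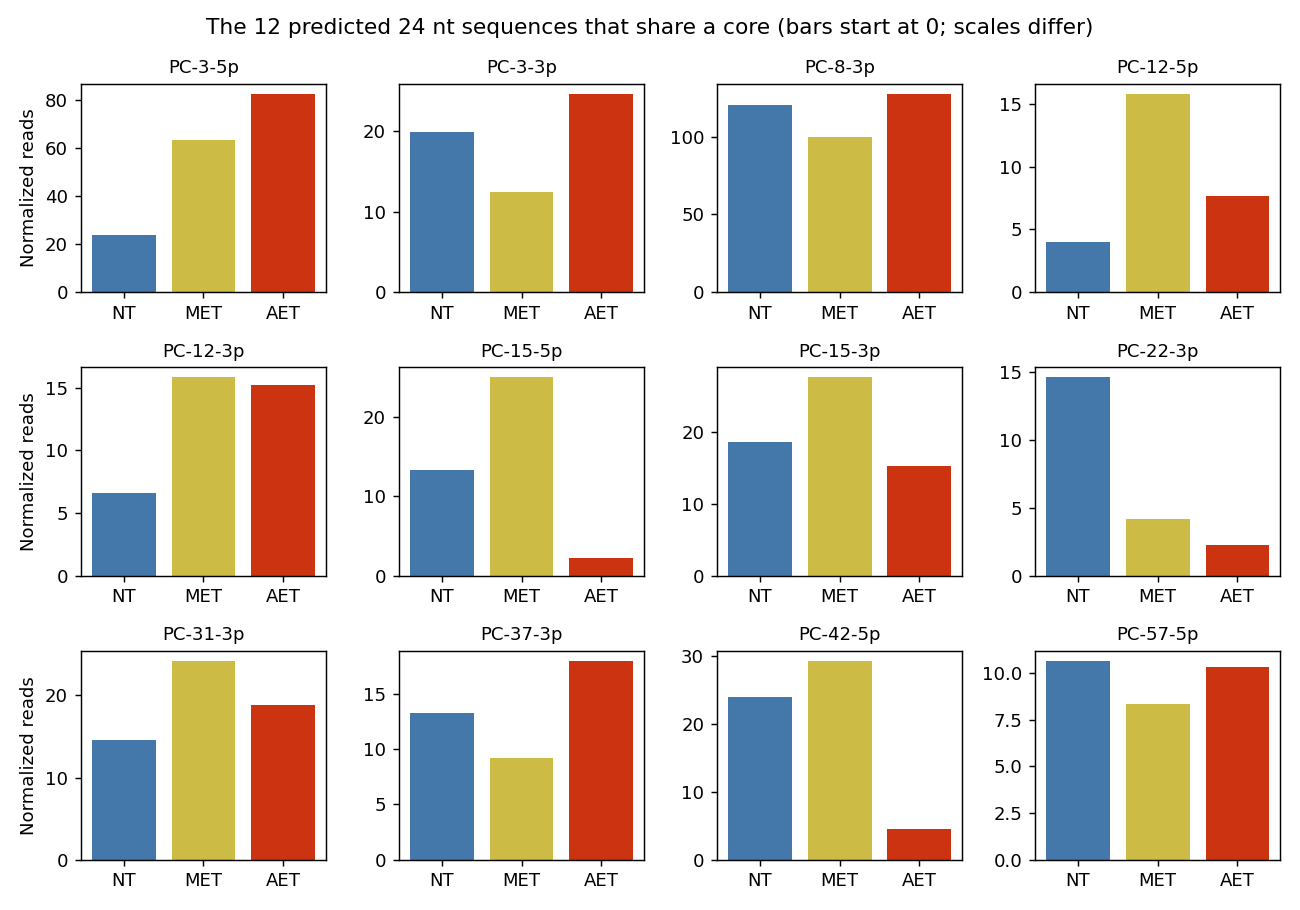
Normalized reads of the 12 sequences of the largest family in the NT, MET and AET libraries (1 library each, scales differ). PC-3-5p is highest in AET, at 82.6, while PC-15-5p and PC-42-5p are lowest in AET, at 2.25 and 4.49.

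In the family of 3, PC-58-5p had 15, 29.5 and 36 raw reads in NT, MET and AET, PC-47-5p 10, 8.5 and 15, and PC-92-5p 6, 11 and 13.5. None was called in any comparison, and the summed ratio of AET over NT was 0.49 (interval −0.14 to 1.17).

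Arm use was measured in the 5 hairpins with both arms, after the raw reads of each arm were rounded to whole reads with 0.5 taken up. In PC-3 the 5p arm made up 54.5% of the reads of both arms in NT (exact interval 36.4 to 71.9), 83.5% in MET (74.3 to 90.5) and 76.7% in AET, 92 rounded reads of 120 (68.1 to 83.9). The intervals in MET and NT did not overlap. In PC-5 the 5p arm was 100% in AET, 13 reads of 13 (75.3 to 100), and 37.5% in MET (22.7 to 54.2), intervals that do not overlap. However, PC-5-3p was listed through MET alone, so the listing condition favoured a high 3p share there. This difference is a description and no test of arm use. In PC-15 it was 15.0% in AET, 3 rounded reads of 20 (3.21 to 37.9), and 47.6% in MET (34.9 to 60.6), intervals that overlap. In PC-1 and PC-12 the intervals of all 3 libraries overlapped. The reads of PC-1-5p and PC-3-3p are also those of a second hairpin.

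**Figure D4:**
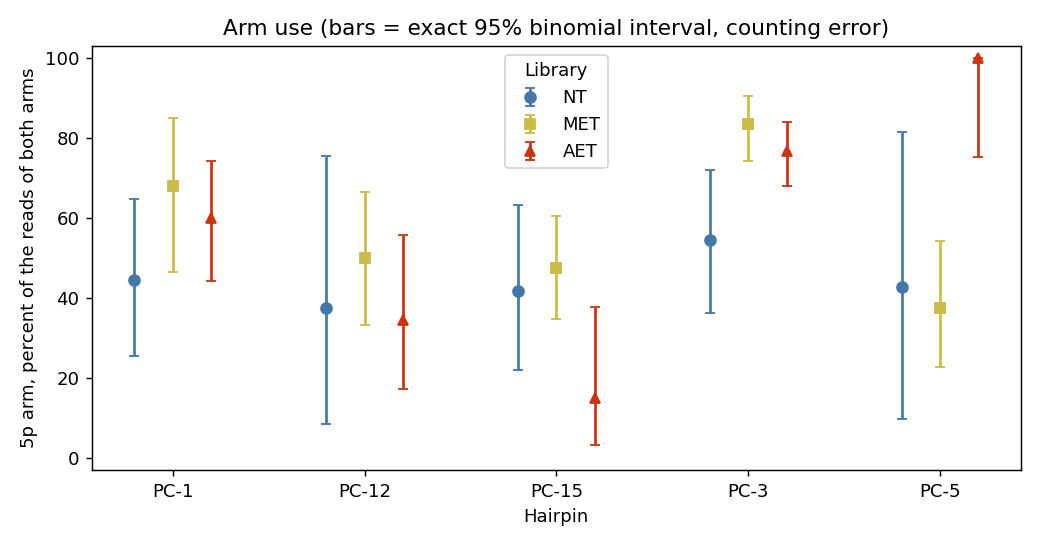
Share of the 5p arm in the reads of both arms (percent) for the 5 hairpins with both arms listed, in NT, MET and AET, with exact 95% binomial intervals for counting error. PC-3 lies at 83.5% in MET and 54.5% in NT, and PC-5 at 100% in AET.

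The degradome libraries sequence the 5′ ends of cut mRNAs, so that a target cut by a miRNA shows reads beginning opposite base 10 of the miRNA. For the predicted 24 nt sequences 4 sites were listed, for 4 of the 65, and 61 had none. They rested on few reads. PC-59-3p was paired with Solyc03g025950.2.1 (MAPR3, a membrane-associated progesterone-binding protein) at position 301, where 3 reads were found in AET and 0 in MET and NT. PC-46-5p was paired with Solyc07g051850.2.1 (APA1, an aspartic proteinase) at position 160, with 1 read in MET. PC-84-5p was paired with Solyc01g091240.2.1 (CRR4, a pentatricopeptide repeat protein) at position 744, also with 1 read in MET. PC-33-3p was paired with Solyc08g080920.2.1 (HAL3A, a HAL3-like protein) at position 95, with 1 read each in NT and MET and 0 in AET.

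In the 5 grades of the degradome analysis, the site of PC-59-3p was in category 2 and the others in category 4, a site with 1 read. Among the sites of conserved miRNAs, category 4 held 58.0%, 47.8% and 54.9% in NT, MET and AET. None of the 12 tests between libraries passed (smallest exact p = 0.11, Fisher's exact test; adjusted over the 12 tests, 0.689). PC-59-3p itself had 5, 11 and 20 raw reads in NT, MET and AET, PC-84-5p 3, 11 and 22, PC-46-5p 2, 10 and 14, and PC-33-3p 10, 7 and 20. The first 3 of these were called higher in AET than in NT, but all 3 were listed through AET alone and had to be higher there. The call of PC-59-3p did not hold after adjustment, and its counting interval held 0 (−0.02 to 3.20). At this depth a difference in cut reads was not detectable.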

How the data were processed

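Small RNA reads of 19 to 24 nt were compared by the authors with miRBase 21.0 and folded with RNAfold. Predicted sequences were kept with an MFEI of at least 0.80 and at least 10 normalized reads in 1 library. The list deposited by the authors gives raw reads, which are estimated counts because a read at several places can be split, and normalized reads, a signal equal to raw reads times 1.33 (NT), 0.833 (MET) or 0.898 (AET). Hairpin GC content is given by the authors in percent. Degradome sites come from CleaveLand 3.0 against iTAG 2.3 transcripts, with a depth-scaled tag signal and an alignment score deposited by the authors. Reads at a site were recovered from the library totals of the study. The deposited tables of the authors' own log2 ratios and p-values were not used.

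Normalized reads, rounded, were tested against the listed totals with scipy 1.17.1. Counting intervals used raw reads. Call functions were tested on simulated data. Entries with the same sequence were counted once. Named sequences were the 5 most abundant per library, up to 10 called ones per direction, those with degradome sites, paired arms or opposite hairpins, families of 3 or more, and those nearest the minimum. The members, lists and rules were chosen with earlier results of these data known.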

Additional observations from a re-analysis of the deposited data

How the results depend on the processing

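No paired analysis was possible because each temperature had 1 library. No call changed direction under any of the 11 alternatives tried for each comparison, but none could have done so. Calls needed a log2 difference of 1 or more, while rescaling moved no ratio by more than 0.42. The remaining alternatives left the ratios as they were. The unchanged direction is therefore no test of the calls. In MET against NT, totals over the predicted sequences alone gave 2 higher and 10 lower calls against 6 and 4, and valid reads as scale gave 9 and 3. Adjustment left 5 calls of 10, with 1 lower, and single-hairpin sequences with whole reads left 2 lower. The summed log2 ratio was 0.46, 0.50 and 0.037 for MET over NT, AET over NT and AET over MET when scaled to valid reads, and 0.20 for MET over NT with single-hairpin sequences of whole reads. On the same strand only, the largest family held 7. Without category 4, 1 degradome site was left of 4. Over all 59 calls, 14 were lost by adjustment and 10 with totals over predicted sequences alone. Depth limits these results, since most sequences had under 20 normalized reads.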
